A study of Mus musculus with 12 samples.

Results

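Hemisection (HS) of the spinal cord was compared with no injury (NI) at 2 weeks after the lesion, in RNA of sorted astrocytes. The comparison holds both libraries labelled HS at 2 weeks and all 3 labelled NI, chosen by their labels, which are 5 of the 12 libraries of the series. The other 7 libraries are 3 of HS at 1 week, 1 of full transection (FT) at 1 week and 3 of FT at 2 weeks. The study's methods state one replicate number for all groups, which is higher than the number of libraries labelled HS at 2 weeks or FT at 1 week, and the labels were followed. All cells came from adult male (Aldh1l1-EGFP)OFC789Gsat/Mmucd mice on a Swiss Webster background, in which a transgene driven by the Aldh1l1 promoter labels astrocytes with eGFP, so NI controls carried the transgene too. The HS mice had a lateral hemisection of the thoracic cord, and the NI mice none. Segments centred on the lesion, or the matching thoracic segment in NI mice, were dissociated and the eGFP+ cells that excluded the dye 7-AAD were sorted. Each library pooled the RNA of animals, and the labels do not say which. The p-values therefore measure the spread between libraries of pooled animals, with only 2 of them on the injured side. The sort used no marker of other cell types, and in bulk RNA a lower number of cells of a type cannot be told apart from less RNA per cell.

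Astrocytes are the glia that buffer ions and transmitters around synapses and wall off a lesion with a scar. After injury they turn reactive, which is classically followed by the filament gene Gfap and the protease inhibitor gene Serpina3n. Complement is a cascade of blood and tissue proteins that tags material for uptake, in which C1q starts the classical pathway and C4 is the next component to be cleaved. Apolipoproteins carry the lipid that is set free when myelin breaks down, and phagocytes of the cord, which are microglia and invading macrophages, take up that myelin and switch on genes of lipid handling. Granulocytes (neutrophils, eosinophils, mast cells and basophils) store proteins in granules, and their granule transcripts are strong markers of these cells or of their precursors.

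The libraries of 1 group did not resemble each other equally. Over genes, NI replicates 2 and 3 correlated at r = 0.9615, NI replicates 1 and 2 at 0.8828 and NI replicates 1 and 3 at 0.8532, while NI replicate 1 correlated with HS 2 weeks replicate 2 at 0.9476. These values share genes of one series and are given as a description. NI replicate 1 therefore stood apart from its group. The sum over 15 genes of homeostatic microglia was 752.3, 5307 and 6993 normalized counts in NI replicates 1, 2 and 3 and 10060 and 1610 in HS 2 weeks replicates 1 and 2. Normalized counts are reads divided by 1 factor per library, so that libraries can be compared gene by gene. The sum over 12 astrocyte genes was 7045, 7442 and 2703 in NI and 2953 and 6427 after HS. The sum over 10 oligodendrocyte genes was 91050, 54300 and 56680 in NI and 73020 and 81570 after HS, so transcripts of the myelinating lineage were plentiful in libraries labelled as astrocytes. Aldh1l1, the gene whose promoter drives eGFP, had 82.3, 59.4 and 10.2 normalized counts in NI and 35.4 and 80.4 after HS. Each of the 5 libraries held 12257277 to 14942057 reads, and a single read was worth 0.0638 to 0.0786 normalized counts. A gene listed at 0 may still have up to 0.191 to 0.236 normalized counts by the limit that 3 reads set, which covers counting error only.

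Injured and NI libraries were tested with limma-trend on log2(normalized count + 1), over all 16388 genes, and a gene was called when its adjusted p was under 0.05 and it moved 2-fold or more. C4b and Apoc1 were the 2 genes called higher at 2 weeks after HS (0.0122% of the genes tested), and 0 genes (0%) were called lower. At an unadjusted p under 0.05 in limma-trend, 627 of the 16388 genes were higher and 600 lower. Such a threshold passes a share of about 0.05 of the genes when none differs. On reads recovered from the table, edgeR called 2 genes by its quasi-likelihood test as well. The likelihood ratio test of edgeR, which is a test of a negative binomial model and does not carry the uncertainty of each gene's dispersion into its p-value, called 69 genes higher (0.421%) and 55 lower (0.336%) at an FDR under 0.05 and the same fold. DESeq2 called 68 higher and 45 lower, of which 55 and 38 were also called by the likelihood ratio test. The calls of the likelihood ratio test are described below as its calls only. Counts of called genes given for a list stand beside its shares of 0.421% and 0.336% of all genes tested. Unless stated otherwise, the log2 fold change given for a gene is that of limma-trend on log2(normalized count + 1), also beside an FDR of the likelihood ratio test, which uses its own log2 fold change. Of all genes tested, 12.9% had both HS libraries above all NI libraries and 11.6% had both below. Of the 69 genes called higher by the likelihood ratio test, 65 had both HS libraries above all NI libraries. The 4 others, Zfp619, Dcstamp, Cdh4 and Usp18, were raised in HS 2 weeks replicate 1 only. All of the 55 genes called lower had both HS libraries below all NI libraries. The median log2 fold change of all genes was -0.02, and it was -0.16 when every library was rescaled to the same total. Among the 109 named genes followed through the alternatives, this rescaling turned only the direction of Mog.

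**Figure D1:**
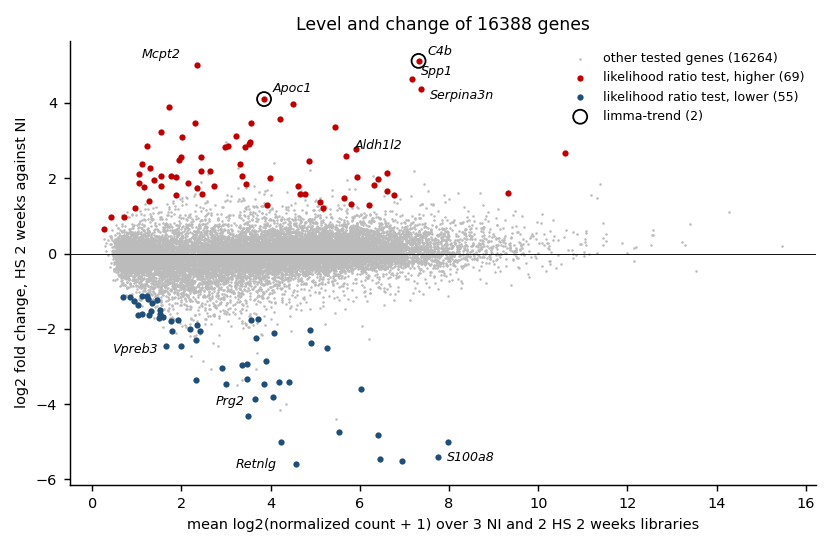
Each point is 1 of 16388 genes, with its mean log2(normalized count + 1) over the 5 libraries on the horizontal axis and its log2 fold change, HS 2 weeks against NI, on the vertical axis. Red and blue points are the 69 and 55 genes called higher and lower by the likelihood ratio test, and open circles mark C4b and Apoc1, the 2 genes called by limma-trend.

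The calls of the likelihood ratio test depended on single libraries. Of the 69 genes called higher, 61 were called without NI replicate 1, 27 without NI replicate 2, 29 without NI replicate 3, 27 without HS 2 weeks replicate 1 and 49 without HS 2 weeks replicate 2. Of the 55 called lower, 54 were called without NI replicate 1, 20 without NI replicate 2, 24 without NI replicate 3, 2 without HS 2 weeks replicate 1 and 6 without HS 2 weeks replicate 2. In all 5 of these fits 19 of the 69 and 1 of the 55 were called, and none was called in the other direction in any. The 69 genes fell into sets by how the HS libraries compared with each other on the scale of value + 1. In 32 genes the HS libraries were within 2-fold of each other, in 27 replicate 1 was at least 2-fold above replicate 2, and in 10 it was the reverse. Of the 27 genes higher in replicate 1, 15 were on a list of activated phagocyte genes, and of the 10 higher in replicate 2, 5 were on a list of mast cell genes. The 32 genes within 2-fold held C4b, C4a, 3 genes of the Serpina3 cluster and 3 genes of the ATF4 response.

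**Figure D2:**
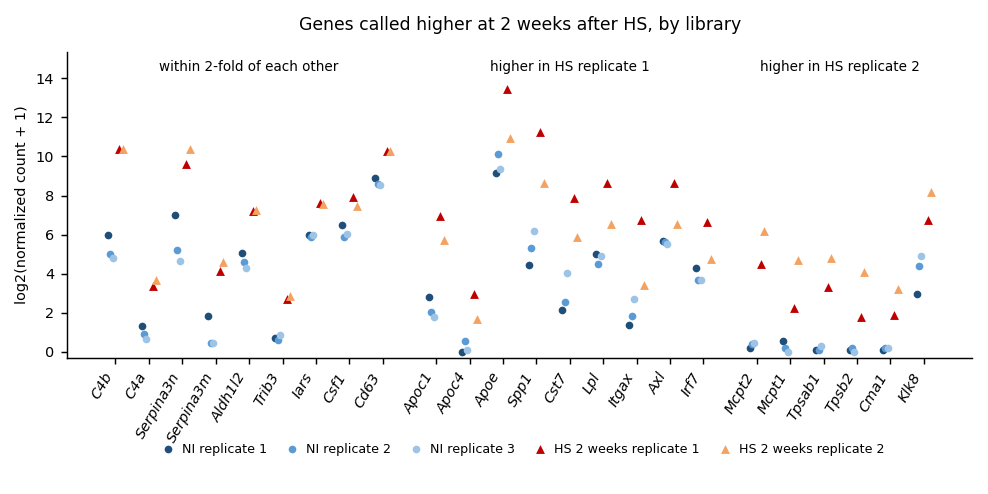
Points give log2(normalized count + 1) of 24 genes called higher by the likelihood ratio test in the 3 NI libraries (circles) and the 2 HS 2 weeks libraries (triangles), grouped by how the HS libraries compare with each other. C4b was at 1355 and 1321 normalized counts in the HS libraries and at 27.3 to 62.6 in NI, whereas Spp1 was at 2474 in HS replicate 1 and 392.3 in HS replicate 2.

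The complement gene C4b showed the largest rise of all genes tested on the log2(normalized count + 1) scale. This rank depends on the pseudocount, since with a pseudocount of 0.25 the log2 fold change was 5.15 for C4b and 6.26 for the mast cell gene Mcpt2. C4b encodes complement component 4 and lies on the minus strand at chr17:34728380-34743882 (GRCm38). It had 62.5, 30.96 and 27.3 normalized counts in NI replicates 1 to 3 and 1355 and 1321 in HS 2 weeks replicates 1 and 2. Both HS libraries were alike and lay far above every NI library. The ratio of the means was 33.2, and the log2 fold change was 5.12 with a standard error of 0.45 (limma-trend, adjusted p = 0.0047). Without NI replicate 1, 2 or 3 the adjusted p of limma-trend was 0.00269, 0.0454 and 0.0331. It was 0.13 without HS 2 weeks replicate 1 and 0.0613 without replicate 2, which leave 1 injured library, and 0.153 when the model held no other group. Its near-identical neighbour C4a, at chr17:34809092-34823464 and annotated as a processed transcript, had 1.49, 0.894 and 0.576 normalized counts in NI and 9.46 and 11.9 after HS. The groups did not overlap, and C4a was called by the likelihood ratio test (log2 fold change 3.43 in that test and 2.57 in limma-trend, FDR = 1.29e-06) but not by limma-trend (adjusted p = 0.0549). Reads of such near-identical copies may have been lost or counted for the wrong copy, so the level of C4a on its own is uncertain.

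Other complement genes did not pass either test at 2 weeks after HS. Of 19 measured genes of the cascade and its regulators, 2 were called higher by the likelihood ratio test, C4a and C4b, and 0 were called lower, with a median log2 fold change of 0.81 against -0.02 over all genes. C4a and C4b were called in all 5 fits without 1 library. In this list 4 genes had both HS libraries above all NI libraries and 2 had both below, beside 12.9% and 11.6% of all genes. Masp1, a protease of the lectin pathway that cleaves C4 and C2 with its partners, had 8.801, 12.1 and 10.9 normalized counts in NI and 21.2 and 26.4 after HS (log2 fold change 1.10, limma-trend adjusted p = 0.46). The gene Rtp4, which is on the interferon list, overlaps Masp1 on the opposite strand. The library kit does not mark the strand, so their reads may be shared. C3, on which all pathways converge, had 10.2, 27.7 and 60.5 in NI and 70.8 and 54.9 after HS (log2 fold change 1.23, limma-trend adjusted p = 0.691), and NI replicate 3 lay between the HS libraries. The C1q chain C1qa had 41.5, 165.9 and 207.4 in NI and 558.7 and 70.3 after HS. Here HS replicate 1 was the highest of the 5 libraries and HS replicate 2 lay within the NI range, and C1qb and C1qc had the same order of the HS libraries against the NI range. C1qa, C1qb and C1qc are also on the list of homeostatic microglia, whose sum had this order of libraries. C4b did not, with HS libraries that differed by a ratio of 1.026.

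Apoc1 was the second gene called by limma-trend, and its neighbours in the Apoe cluster were called by the likelihood ratio test. Apoc1, the gene of an apolipoprotein that binds lipoprotein particles, lies at chr7:19689481-19692660 on the minus strand. It had 5.97, 3.13 and 2.45 normalized counts in NI and 120.7 and 50.99 after HS, so that both HS libraries were above every NI library and HS replicate 1 was the higher of them. The ratio of the means was 22.3, with a log2 fold change of 4.10 and a standard error of 0.41 (limma-trend, adjusted p = 0.00857). The adjusted p of limma-trend was 0.0677 without NI replicate 2, 0.152 without HS 2 weeks replicate 1 and 0.296 when the model held no other group, and 0.00604, 0.0475 and 0.0204 without NI replicate 1, NI replicate 3 and HS 2 weeks replicate 2. Apoe, which encodes the main lipid carrier of the central nervous system, had 560.2, 1116 and 654.5 normalized counts in NI and 11330 and 1971 after HS. NI and HS libraries did not overlap, but HS replicate 1 was several times as high as HS replicate 2 (log2 fold change 2.67, likelihood ratio test FDR = 0.00429). Apoc4, at chr7:19678083-19681479, had 0, 0.447 and 0.072 normalized counts in NI, which are 0, 7 and 1 reads, and 6.83 and 2.198 after HS (likelihood ratio test FDR = 2.25e-05). Apoc2, which encodes the cofactor of lipoprotein lipase and lies at chr7:19671579-19677941, had 1.65, 2.49 and 1.799 in NI and 21.4 and 7.11 after HS (likelihood ratio test FDR = 0.00987). Apoc2 and Apoc4 each overlap the annotated gene Gm44805 on the same strand, so that their reads may be shared with it.

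Of 22 measured genes of apolipoproteins and lipid handling, 6 were called higher by the likelihood ratio test and 0 lower, with a median log2 fold change of 0.72. This count was 2 without HS 2 weeks replicate 1, 2 without NI replicate 3 and 3 without NI replicate 2, and Apoc1 and Apoc4 were called in all 5 fits. Abca1, the transporter that loads cholesterol onto apolipoproteins, had 27.1, 39 and 31.5 normalized counts in NI and 110.9 and 76.3 after HS (log2 fold change 1.49, likelihood ratio test FDR = 0.021). In this list 11 genes had both HS libraries above all NI libraries and 3 had both below, beside 12.9% and 11.6% of all genes. The summed level was 24210, 6352 and 5174 normalized counts in NI replicates 1 to 3 and 20760 and 16670 after HS. It overlapped between the groups, with NI replicate 1 the highest of the 5 libraries.

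Genes of activated phagocytes were the largest group among the genes called higher, and most of them were highest in HS replicate 1. Of 30 measured genes, 18 were called higher by the likelihood ratio test and 0 lower, beside 0.421% and 0.336% of all genes. Both HS libraries lay above all NI libraries in 21 of the 30, beside 12.9% of all genes. The median log2 fold change was 1.90. None of the 30 genes was called by limma-trend. Without HS 2 weeks replicate 1 the likelihood ratio test called 0 of them, without HS 2 weeks replicate 2 it called 17, and without NI replicates 1, 2 and 3 it called 17, 6 and 8. The median log2 fold change of the list ranged from 1.11 to 3.04 over these 5 fits. The summed level of the list was 6137, 7177 and 7785 normalized counts in NI and 41500 and 12970 after HS, beside sums of the homeostatic microglia genes of 752.3, 5307 and 6993 in NI and 10060 and 1610 after HS. HS replicate 1 was the highest of the 5 libraries in both sums, and HS replicate 2 was above all NI libraries in the first sum only. Of the 15 microglial genes, 0 were called by limma-trend and 0 by the likelihood ratio test. Their median log2 fold change, 0.40, ranged from -0.68 to 1.91 over the 5 fits without 1 library. The microglial receptor gene P2ry12 had 39.7, 515.0 and 819.4 normalized counts in NI and 459.0 and 74.9 after HS. Tmem119, another marker of resident microglia, had 12.9, 246.6 and 310.2 in NI and 181.8 and 18.5 after HS, so neither marker was at 0 in any of the 5 libraries. The part of microglia and macrophages in the level of the phagocyte genes was not tested.

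Spp1 showed the largest rise among the phagocyte genes. Spp1 encodes osteopontin, a secreted matrix protein, and lies at chr5:104435118-104441050. It had 20.8, 38.5 and 72.4 normalized counts in NI and 2474 and 392.3 after HS (log2 fold change 4.63, standard error 1.04, likelihood ratio test FDR = 6.77e-06, limma-trend adjusted p = 0.402). Both HS libraries lay above every NI library, and HS replicate 1 lay several-fold above HS replicate 2. Cst7, the gene of the protease inhibitor cystatin F at chr2:150570415-150578944, had 3.38, 4.85 and 15.6 in NI and 234.5 and 57.6 after HS (log2 fold change 3.97, likelihood ratio test FDR = 2.25e-05). Lpl, the lipase that frees fatty acids from lipoproteins, had 31.1, 21.2 and 29.2 in NI and 397.0 and 90.8 after HS (log2 fold change 2.78, likelihood ratio test FDR = 0.000402). Spp1, Cst7 and Lpl were called in 4 of the 5 fits, all but the fit without HS 2 weeks replicate 1.

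The surface receptors of this list had the same order of libraries. Itgax, an integrin chain, had 1.57, 2.55 and 5.61 normalized counts in NI and 106.5 and 9.74 after HS (likelihood ratio test FDR = 0.00547). Clec7a, a lectin receptor, had 9.51, 12.6 and 21.4 in NI and 212.5 and 29.7 after HS (likelihood ratio test FDR = 0.0148). Axl, a receptor kinase for the uptake of dying cells, had 50.5, 47.5 and 44.7 in NI and 397.4 and 92.4 after HS (likelihood ratio test FDR = 0.0139). In all 3 receptors HS replicate 2 was above the NI libraries, but far closer to them than to HS replicate 1. The glycoprotein gene Gpnmb had 9.43, 1.66 and 2.23 in NI and 86.03 and 27.1 after HS (likelihood ratio test FDR = 0.0084). Cd22, a lectin that binds sialic acid, had 2.04, 2.04 and 4.103 in NI and 63.97 and 9.08 after HS (likelihood ratio test FDR = 0.000561). The chemokine gene Ccl5 had 3.46, 4.02 and 4.32 in NI and 110.9 and 9.74 after HS (likelihood ratio test FDR = 0.000701). The growth factor gene Igf1, also on this list, had 127.5, 12.3 and 7.49 in NI and 33.02 and 86.6 after HS, and its groups overlapped.

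Csf1 and Cd63 belong to the same list but were alike in both HS libraries. Csf1, which encodes the colony stimulating factor on which microglia depend, lies at chr3:107741048-107760469 and had 90.3, 57.5 and 63.6 normalized counts in NI and 241.8 and 175.2 after HS. The groups did not overlap, with a log2 fold change of 1.56 and a standard error of 0.24 (likelihood ratio test FDR = 0.0116, limma-trend adjusted p = 0.0981). Cd63, a tetraspanin of late endosomes at chr10:128900989-128912822, had 482.6, 384.4 and 370.2 in NI and 1220 and 1261 after HS (log2 fold change 1.60, standard error 0.27, likelihood ratio test FDR = 0.0151). Both HS libraries lay above every NI library. The call of Csf1 was lost without HS 2 weeks replicate 1 and without NI replicate 2 or 3, and that of Cd63 in every fit but the one without NI replicate 1.

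Genes of the interferon response were higher in HS replicate 1 than in HS replicate 2. Interferons are signalling proteins that switch on antiviral genes in the cells they reach. Of 31 measured genes, 4 were called higher by the likelihood ratio test and 0 lower, with a median log2 fold change of 0.82, and 30 had a positive log2 fold change. Without HS 2 weeks replicate 1 the count was 0, without replicate 2 it was 11, and it was 8, 0 and 0 without NI replicates 1, 2 and 3. The summed level was 489.6, 392 and 397.7 normalized counts in NI and 1368 and 472.4 after HS, so HS replicate 2 lay within the NI range. Irf7, the factor that amplifies the response, had 18.9, 11.9 and 11.6 normalized counts in NI and 98.05 and 25.9 after HS (log2 fold change 1.81, standard error 0.45, likelihood ratio test FDR = 0.00207, limma-trend adjusted p = 0.454). Oasl2, a relative of the antiviral oligoadenylate synthetases, had 9.901, 9.26 and 9.36 in NI and 45.5 and 13.3 after HS (likelihood ratio test FDR = 0.0375). Both HS libraries were above every NI library in both genes. Xaf1 and Isg15 were not called, although their HS libraries also lay above all NI libraries. Xaf1 had 28.8, 29.2 and 31.2 in NI and 53.6 and 45.4 after HS, and Isg15, a ubiquitin-like protein, had 6.6, 4.98 and 5.33 in NI and 30.6 and 9.08 after HS. Of 15 genes of antigen presentation, none was called by limma-trend or the likelihood ratio test, and the median log2 fold change was 0.30. H2-D1, an MHC class I gene, had 122.3, 159.1 and 186.7 normalized counts in NI and 739.0 and 277.2 after HS, with HS libraries above all NI libraries (log2 fold change 1.55, likelihood ratio test FDR = 0.0713).

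Among genes of the Serpina3 cluster of protease inhibitors and kallikrein genes, 5 were called higher by the likelihood ratio test. The Serpina3 genes are tandem copies on chromosome 12 and the kallikreins are secreted serine proteases encoded on chromosome 7. Serpina3n, at chr12:104406729-104414329, had 126.4, 36.3 and 24.4 normalized counts in NI and 779.6 and 1314 after HS. NI replicate 1 was the highest NI library, but both HS libraries were well above it (log2 fold change 4.36, standard error 0.71, likelihood ratio test FDR = 2.27e-06, limma-trend adjusted p = 0.119). Serpina3m, at chr12:104338486-104394257, had 2.59, 0.383 and 0.36 in NI and 16.8 and 23.3 after HS (log2 fold change 3.46, likelihood ratio test FDR = 2.19e-06, limma-trend adjusted p = 0.0936). Serpina3h, annotated as a transcribed unprocessed pseudogene, had 0.0786, 0.83 and 0.144 in NI and 3.77 and 7.399 after HS (likelihood ratio test FDR = 0.00779). These 3 genes were the members called among 7 measured, with a median log2 fold change of 1.01, and because the copies are alike, reads may have been counted for the wrong member. Serpina3n and Serpina3m were called in all 5 fits without 1 library, and Serpina3h was lost without HS 2 weeks replicate 2 and without NI replicate 3.

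Klk8, the gene of neuropsin at chr7:43797577-43803826, had 6.92, 19.98 and 29.4 normalized counts in NI and 104.9 and 292.0 after HS (log2 fold change 3.36, standard error 0.72, likelihood ratio test FDR = 0.000106). Its neighbour Klk9, at chr7:43791891-43796757, had 1.02, 1.08 and 0.72 in NI and 7.4 and 13.04 after HS (log2 fold change 2.49, likelihood ratio test FDR = 1.62e-05). The groups of both genes did not overlap, and HS replicate 2 was the higher HS library. The gene 2310002F09Rik, which runs antisense to both and was itself among the 69 genes called higher, overlaps them, and the library kit does not mark the strand, so their reads cannot be told apart. Of 7 measured kallikrein genes 2 were called, with a median log2 fold change of 0.98. Klk9 was called in all 5 fits, and Klk8 was lost without HS 2 weeks replicate 2. Klk6, a kallikrein of oligodendrocytes, had 4283, 860.5 and 916.6 in NI and 3801 and 5183 after HS, and NI replicate 1 lay between the HS libraries.

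Gfap, the classical marker of reactive astrocytes, was not called at 2 weeks after HS. Gfap, at chr11:102887336-102900912, had 153.7, 100.2 and 33.2 normalized counts in NI and 131.6 and 1055 after HS. HS replicate 1 lay within the NI range and HS replicate 2 above it (log2 fold change 2.20, standard error 1.16, limma-trend adjusted p = 0.717, likelihood ratio test FDR = 0.134). The sum over 12 astrocyte genes was lower in HS replicate 1 (2953) than in HS replicate 2 (6427), and whether this bears on Gfap was not tested. Of 17 reactive astrocyte genes, 1 was called higher, Serpina3n, and 1 lower, Lcn2, by the likelihood ratio test, with a median log2 fold change of 0.63. Lcn2 is also a granule gene of neutrophils and is described with them.

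In the ATF4 response 3 genes were called higher by the likelihood ratio test, and their HS libraries were almost equal. ATF4 is a transcription factor that is translated when amino acids are short or the endoplasmic reticulum is stressed, and its targets include aminoacyl tRNA synthetases, which load amino acids onto tRNA. Aldh1l2, the mitochondrial relative of the gene behind the eGFP label, lies at chr10:83487450-83534140 and had 32.9, 23.1 and 18.4 normalized counts in NI and 144.9 and 153.8 after HS. The groups did not overlap, with a log2 fold change of 2.58 and a standard error of 0.36 (likelihood ratio test FDR = 1.29e-06, limma-trend adjusted p = 0.0703). Trib3, a pseudokinase that is induced by ATF4 and restrains it, had 0.629, 0.511 and 0.792 in NI and 5.48 and 6.3 after HS (log2 fold change 2.07, standard error 0.33, likelihood ratio test FDR = 5.85e-05). Iars, the isoleucyl tRNA synthetase, had 62.1, 58.02 and 61.9 in NI and 193.7 and 191.1 after HS (log2 fold change 1.65, standard error 0.30, likelihood ratio test FDR = 0.00957). In all 3 genes both HS libraries were above every NI library. Aldh1l2 and Trib3 were called in all 5 fits without 1 library, and Iars only without NI replicate 1.

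The promoter windows of Trib3 and Iars are shown because each holds 1 copy of the composite site TGATGNAA that ATF4 and C/EBP factors are known to bind together. The windows run from 250 bases before to 30 bases after the RefSeq start on GRCm38.p6, at chr2:152344031-152344310 on the minus strand and chr13:49681880-49682159 on the plus strand, and are written along the gene. The window of Aldh1l2 was not analysed here. The capitals mark the site, which lies on the strand opposite to the gene and starts 14 bases after the start in Trib3 and 7 bases after it in Iars.
Trib3: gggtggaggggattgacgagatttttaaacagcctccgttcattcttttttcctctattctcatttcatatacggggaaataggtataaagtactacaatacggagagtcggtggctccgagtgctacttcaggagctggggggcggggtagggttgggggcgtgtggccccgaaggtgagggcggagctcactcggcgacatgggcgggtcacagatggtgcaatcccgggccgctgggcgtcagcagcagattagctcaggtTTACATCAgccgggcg
Iars: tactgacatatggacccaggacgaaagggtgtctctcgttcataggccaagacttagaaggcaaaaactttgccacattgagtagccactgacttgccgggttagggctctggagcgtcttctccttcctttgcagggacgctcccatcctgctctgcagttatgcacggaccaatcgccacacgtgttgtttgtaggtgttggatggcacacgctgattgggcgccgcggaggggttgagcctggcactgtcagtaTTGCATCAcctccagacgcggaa
On either strand of the longer windows of RefSeq, with 50 bases after the start, TGATGNAA was found in 381 of the 12844 tested genes that have a window (2.97%). The core of the interferon-stimulated response element was also searched on both strands, was in 3.74% of these genes and was not found in the windows of Irf7 and Oasl2. The letters TTCNNNGAA, to which STAT factors are known to bind, were in 8.36% and were not found in the window of Serpina3n. The matches are a description of these letters, and binding was not measured.

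Of 32 measured genes of the ATF4 response, 3 were called higher by the likelihood ratio test and 0 lower, with a median log2 fold change of 0.33. In this list 14 genes had both HS libraries above all NI libraries and 1 had both below, beside 12.9% and 11.6% of all genes. Ddit3, the stress factor CHOP, had 50.3, 55.2 and 50.2 normalized counts in NI and 94.99 and 95.97 after HS (log2 fold change 0.87, standard error 0.20, limma-trend adjusted p = 0.451). Aars, the alanyl tRNA synthetase, had 124.2, 101.9 and 121.8 in NI and 213.0 and 198.0 after HS (log2 fold change 0.82, standard error 0.24, limma-trend adjusted p = 0.491). Neither gene was called, although the HS libraries of both lay above every NI library.

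Genes of mast cell proteases were near the limit of detection in NI and present in both HS libraries. Mcpt2, at chr14:56042041-56044642, encodes a chymase of mucosal mast cells and had 0.157, 0.319 and 0.36 normalized counts in NI, each from 2 to 5 reads, and 21.4 and 72.9 after HS. NI and HS values were well apart (likelihood ratio test FDR = 3.98e-14, limma-trend adjusted p = 0.0936). Its log2 fold change of 4.996 depends on the pseudocount of 1, as do those of the other mast cell proteases, because the NI libraries hold so few reads. Mcpt1, at chr14:56017971-56020384, had 0.471, 0.128 and 0 in NI and 3.7 and 25.1 after HS (likelihood ratio test FDR = 8.74e-06). The tryptase gene Tpsab1, at chr17:25343245-25345562, had 0.0786, 0.0638 and 0.216 in NI and 8.96 and 27.1 after HS (likelihood ratio test FDR = 2.21e-12), and its neighbour Tpsb2 had 0.0786, 0.128 and 0 and 2.49 and 15.97 (likelihood ratio test FDR = 2.68e-08). The chymase gene Cma1 had 0.0786, 0.128 and 0.144 in NI and 2.63 and 8.35 after HS (likelihood ratio test FDR = 9.23e-06). HS replicate 2 was the higher HS library in all 5 genes, each of which was called in all 5 fits without 1 library. Mcpt1 and Mcpt2, and Tpsab1 and Tpsb2, are close relatives, and their reads may have been lost or counted for the wrong copy.

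These 5 proteases were the genes called among 14 measured mast cell genes, whose median log2 fold change was 0.82. The share called higher among all genes was 0.421%. In this list 6 genes had both HS libraries above all NI libraries and 2 had both below, beside 12.9% and 11.6% of all genes. The summed level of the list was 38.7, 99.9 and 183.7 normalized counts in NI and 90.7 and 222.3 after HS, and it overlapped between the groups. The receptor gene Kit, which mast cells share with other cells, had 3.46, 15.4 and 29.4 in NI and 23.98 and 25.4 after HS, within the NI range. Cpa3, the carboxypeptidase of mast cell granules, had 2.59, 3.13 and 14.7 in NI and 7.04 and 17 after HS, and its groups overlapped. Mcpt8, a protease of basophils, had 11.8, 27.7 and 70.5 in NI and 2.35 and 2.78 after HS, both HS libraries being below the NI range (log2 fold change -3.06, likelihood ratio test FDR = 0.0898). The list therefore did not move as 1 group, and the part of mast cells or of their precursors in these levels was not tested.

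Genes of neutrophil granules made up most of the 12 largest falls. Of 23 measured neutrophil genes, 16 were called lower by the likelihood ratio test and 0 higher, with a median log2 fold change of -3.46. Both HS libraries lay below all NI libraries in 21 of the 23, beside 11.6% of all genes. The summed level was 891.8, 7201 and 12000 normalized counts in NI and 431.4 and 163.7 after HS. NI replicate 1 was far closer to the HS libraries than NI replicates 2 and 3 were. None of these genes was called by limma-trend. The number called lower by the likelihood ratio test was 20 without NI replicate 1, 9 without NI replicate 2, 10 without NI replicate 3, 0 without HS 2 weeks replicate 1 and 2 without HS 2 weeks replicate 2, and the median log2 fold change of the list ranged from -4.61 to -2.85. The part of neutrophils or of their precursors in the NI libraries was not tested.

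S100a8 and S100a9 encode both chains of calprotectin, the most abundant protein of neutrophil cytosol. S100a8, at chr3:90668978-90670035, had 173.4, 1573 and 3291 normalized counts in NI and 18.1 and 25.9 after HS (log2 fold change -5.42, standard error 1.32, likelihood ratio test FDR = 0.00116, limma-trend adjusted p = 0.454). S100a9, at chr3:90692632-90695721, had 101.1, 1076 and 1666 in NI and 12.9 and 10.3 after HS (log2 fold change -5.51, likelihood ratio test FDR = 0.00118). The HS libraries were alike and below every NI library in both genes, while the NI libraries themselves differed more than 10-fold. Lcn2, which encodes the iron-trapping protein lipocalin 2 and lies at chr2:32384633-32388252, had 42.5, 296.6 and 388.5 in NI and 4.27 and 6.74 after HS (log2 fold change -4.75, standard error 1.03, likelihood ratio test FDR = 0.000157). Ngp, the neutrophilic granule protein, had 244.4, 1729 and 2380 in NI and 31.4 and 29.7 after HS (likelihood ratio test FDR = 0.0034). The lactoferrin gene Ltf had 69.6, 596.3 and 779.9 in NI and 8.18 and 13.1 after HS (likelihood ratio test FDR = 0.00917), and Camp, the gene of cathelicidin, had 81.9, 574.4 and 1324 and 9.96 and 6.52 (likelihood ratio test FDR = 0.00172).

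Retnlg, a resistin-like gene of myeloid cells, showed the largest fall of all genes tested on the log2(normalized count + 1) scale. It had 13.5, 334.1 and 292.4 normalized counts in NI and 0.0712 and 4.03 after HS, where the value of HS replicate 1 is a single read (log2 fold change -5.60, standard error 1.39, likelihood ratio test FDR = 0.00429). Chi3l3, a chitinase-like protein of myeloid cells, had 10.7, 181.2 and 198.9 in NI and 1.07 and 1.61 after HS (log2 fold change -5.02, likelihood ratio test FDR = 0.00222). Mmp8, the neutrophil collagenase, had 2.91, 67.8 and 56.6 in NI and 2.63 and 1.91 after HS (log2 fold change -2.94, likelihood ratio test FDR = 0.047). For Mmp8 the groups were apart only narrowly, since NI replicate 1 lay just above HS replicate 1, and its call was kept only without NI replicate 1. Chi3l3 lost its call without either HS library, and Retnlg without HS 2 weeks replicate 1. Trem3, a receptor of myeloid cells, had 2.51, 19.5 and 28.1 in NI and 0.427 and 0.0733 after HS, and 1100001G20Rik, a gene outside the lists, had 7.46, 61.98 and 95.01 in NI and 0.356 and 1.54 after HS (likelihood ratio test FDR = 0.00784 and 0.00306). The chemokine receptor gene Cxcr2 was not called and had 29.1, 32.9 and 31.1 in NI and 10.2 and 17.5 after HS. Its NI libraries were nearly equal to each other, unlike those of the granule genes.

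Prg2, which encodes the major basic protein of eosinophil granules, was the gene called lower in all 5 fits without 1 library. It lies at chr2:84980461-84983632 and had 25.1, 50.7 and 36.2 normalized counts in NI and 0.712 and 2.71 after HS. All NI libraries were far above both HS libraries (log2 fold change -3.87, standard error 0.51, likelihood ratio test FDR = 8.74e-06, limma-trend adjusted p = 0.0549). Epx, the eosinophil peroxidase, had 8.41, 4.34 and 3.81 in NI and 1.21 and 0.513 after HS (log2 fold change -1.77, standard error 0.32, likelihood ratio test FDR = 0.0151). For Epx NI replicate 1 was the highest library, in contrast to the neutrophil genes, and the call was lost without either HS library. These were the 2 genes called of 4 measured on the eosinophil list. Of the others, Siglec5, a lectin receptor, had 1.49, 6.32 and 7.41 in NI and 44.8 and 2.42 after HS, and the interleukin 5 receptor gene Il5ra had 2.2, 2.49 and 2.45 in NI and 2.42 and 2.27 after HS. The groups of both overlapped, as did the summed level of the list, with 37.2, 63.8 and 49.9 normalized counts in NI and 49.1 and 7.91 after HS.

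Some genes of B cell precursors were called lower after HS, while the summed level of their list overlapped between the groups. Of 14 measured genes of B cells and their precursors, the likelihood ratio test called 5 lower and 0 higher, beside 0.336% and 0.421% of all genes. The median log2 fold change was -1.33, and 2 genes had a positive log2 fold change. Both HS libraries lay below all NI libraries in 8 of the 14, beside 11.6% of all genes. The summed level was 51.0, 119.0 and 192.4 normalized counts in NI and 122.8 and 42.8 after HS, so HS replicate 1 lay above NI replicates 1 and 2. The number called was 9 without NI replicate 1, 3 and 2 without NI replicates 2 and 3, and 1 without either HS library. Vpreb1 encodes a part of the surrogate light chain of the pre-B cell receptor, and Vpreb3 encodes a related protein. Vpreb3 had 1.18, 6.89 and 12.9 normalized counts in NI and 0.285 and 0 after HS (likelihood ratio test FDR = 0.00118). Vpreb1 had 0.393, 3.64 and 4.17 in NI and 0 and 0.0733 after HS (likelihood ratio test FDR = 0.00263), which are 0 and 1 reads. Cd79a, a signalling chain of the B cell receptor, had 1.81, 11.9 and 12.6 in NI and 0.285 and 0.586 after HS (likelihood ratio test FDR = 0.0084). The groups did not overlap in any of the 3, and NI replicate 1 was the lowest NI library in each.

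Few genes of other blood cells were called, where the likelihood ratio test called 0.336% of all genes lower. Of 8 monocyte genes, 3 were called lower by the likelihood ratio test, Plac8 and Ly6c2 among them, with a median log2 fold change of -2.32 over the list, and none of the 3 was called without either HS library or without NI replicate 2 or 3. Ly6c2, a surface antigen of inflammatory monocytes, had 4.09, 43.7 and 93.6 normalized counts in NI and 2.77 and 1.03 after HS. Plac8 had 12.5, 55.7 and 212.9 in NI and 7.4 and 2.12 after HS, and the groups did not overlap in either gene. Ly6c1, another member, had 6.6, 22.5 and 3.67 in NI and 12.9 and 10.8 after HS, and the chemokine receptor gene Ccr2 had 2.2, 20.3 and 27.9 in NI and 4.77 and 1.98 after HS, with groups that overlapped in both. Of 10 T and NK cell genes, Nkg7, a protein of cytotoxic granules, was called lower, with 8.17, 16.9 and 55.8 in NI and 1.92 and 0.22 after HS (likelihood ratio test FDR = 0.0248), a call kept in 2 of the 5 fits without 1 library. Of 7 erythroid genes, Rhd, a blood group antigen gene, was called lower, with 0.629, 5.55 and 7.56 in NI and 0.498 and 0.44 after HS (likelihood ratio test FDR = 0.0464), a call kept only without NI replicate 1. The median log2 fold changes of the T and NK cell and the erythroid lists were -0.25 and -1.54. All 7 erythroid genes had a negative log2 fold change. Both HS libraries lay below all NI libraries in 6 of these 7, beside 11.6% of all genes. The same held for 4 of the 8 monocyte genes and 3 of the 10 T and NK cell genes. The summed level of the erythroid list was lower in both HS libraries than in every NI library.

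Genes of motile cilia, which ependymal cells of the central canal carry, had negative log2 fold changes after HS throughout, but few of them passed a test. All 24 measured genes had a negative log2 fold change, with a median of -1.28, beside 8547 of the 16388 genes tested. Of the 24, 5 were called lower by the likelihood ratio test. Like the others, this list was chosen with earlier results of these data known, so its counts are no independent evidence. Both HS libraries lay below all NI libraries in 12 of the 24, beside 11.6% of all genes. The summed level was 98.5, 621 and 363.6 normalized counts in NI and 99.7 and 80.7 after HS, so NI replicate 1 was as low as HS replicate 1. The number called was 14 without NI replicate 1, 0 without NI replicate 2, 1 without NI replicate 3 and 0 without either HS library. Fam183b, a cilium gene, had 6.92, 55.02 and 29.01 normalized counts in NI and 4.84 and 3.22 after HS (log2 fold change -2.25, likelihood ratio test FDR = 0.0231). Efcab10 had 1.96, 6.702 and 6.69 in NI and 0.712 and 0.513 after HS (log2 fold change -1.80, likelihood ratio test FDR = 0.0189). Tekt2, the gene of a tektin of the axoneme, had 3.77, 2.87 and 2.16 in NI and 0.64 and 0.659 after HS (log2 fold change -1.23, standard error 0.25, likelihood ratio test FDR = 0.033). Tekt2 differed from the others in that NI replicate 1 was its highest library. Dynlrb2, a light chain of dynein, had 8.41, 54.2 and 31.3 in NI and 5.48 and 4.03 after HS and was not called (likelihood ratio test FDR = 0.0579). Foxj1, the master factor of motile cilia, had 1.57, 19.7 and 9.43 in NI and 3.34 and 4.25 after HS, and its groups overlapped. The part of ependymal cells in these levels was not tested.

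**Figure D3:**
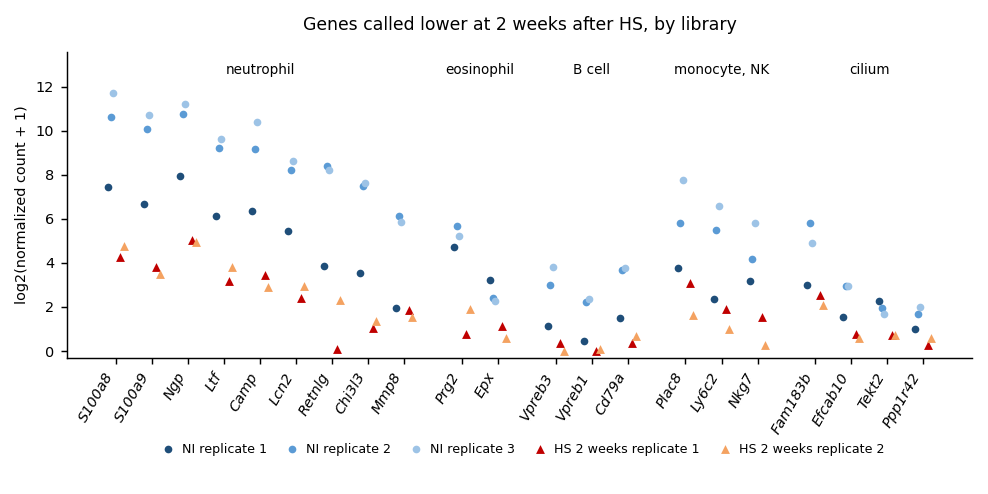
Points give log2(normalized count + 1) of 21 genes called lower by the likelihood ratio test in the 3 NI libraries (circles) and the 2 HS 2 weeks libraries (triangles), grouped by list. NI replicate 1 was the lowest NI library in most neutrophil, B cell, monocyte and NK genes, with 173.4 normalized counts of S100a8 against 1573 and 3291, whereas Epx and Tekt2 were highest in it.

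Genes of neuronal progenitors were examined because the study asked whether astrocytes take on neuronal traits after injury. Of 11 measured genes of progenitors and of the neuronal markers named by the study, Tubb3 and Fgfr4 were called higher by the likelihood ratio test, and the median log2 fold change was -0.17. Tubb3, which encodes the neuronal tubulin βIII and lies at chr8:123411424-123422015, had 69.6, 23.9 and 23.4 normalized counts in NI and 127.7 and 158.2 after HS. Both HS libraries were above NI replicate 1, the highest NI library (log2 fold change 2.03, standard error 0.47, likelihood ratio test FDR = 0.0281, limma-trend adjusted p = 0.451). The annotated gene Gm20388 overlaps Tubb3 on the same strand. Fgfr4, a receptor of fibroblast growth factors at chr13:55152640-55168759, had 3.14, 1.15 and 2.45 in NI and 6.69 and 13.5 after HS (log2 fold change 1.75, standard error 0.42, likelihood ratio test FDR = 0.0189, limma-trend adjusted p = 0.454), and its groups did not overlap. Tubb3 lost its call in 4 of the 5 fits, all but the one without NI replicate 1, and Fgfr4 lost it without HS 2 weeks replicate 2 and without NI replicate 2 or 3.

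Genes of mature neurons and of oligodendrocytes were not called in this comparison. Of 11 measured neuronal genes, 0 were called by either test, and the median log2 fold change was -0.19. Eno2, the neuronal enolase, had 45.3, 19.4 and 20.7 normalized counts in NI and 68.95 and 87.8 after HS, with both HS libraries above all NI libraries (log2 fold change 1.53, limma-trend adjusted p = 0.454, likelihood ratio test FDR = 0.0585). The neurofilament gene Nefl had 16.7, 7.28 and 4.32 in NI and 4.34 and 12.9 after HS, and the synaptic gene Snap25 had 57.8, 23.4 and 16.8 in NI and 12.6 and 34.3 after HS. The synaptotagmin gene Syt1 had 2.99, 1.79 and 2.16 in NI and 1.78 and 2.56 after HS. Of 10 oligodendrocyte genes 0 were called, with a median log2 fold change of 0.26. The myelin basic protein gene Mbp had 13530, 6750 and 7585 in NI and 10050 and 11770 after HS (log2 fold change 0.30, standard error 0.63, limma-trend adjusted p = 0.959). Mog, another myelin gene, had 3177, 1529 and 1767 in NI and 1827 and 2441 after HS, and the lineage factor Sox10 had 143.4, 145.5 and 187.0 and 127.0 and 145.7. The HS libraries overlapped the NI range in all genes given in this paragraph but Eno2. Over the whole neuronal list, 1 gene, Eno2, had both HS libraries above all NI libraries and 1 had both below. Of the 10 oligodendrocyte genes, 2 had both above and 0 had both below, beside 12.9% and 11.6% of all genes. A missed threshold with 2 injured libraries does not show that any of these genes was unchanged.

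Homeostatic astrocyte genes varied as widely within the groups as between them. None of 12 was called by either test, and the median log2 fold change was -0.40 with a range of -1.59 to 0.51 over the fits without 1 library. Gja1, the astrocytic connexin 43, had 498.8, 991.2 and 125.2 normalized counts in NI and 83.2 and 515.9 after HS, and the glutamate transporter gene Slc1a2 had 488.6, 609.1 and 116.0 in NI and 68.3 and 571.3 after HS. In both genes NI replicate 3 and HS replicate 1 were the low libraries. Of 8 genes of oligodendrocyte progenitors all had a negative log2 fold change, with a median of -0.94, and 0 were called. Of 26 cell cycle genes, 25 had a negative log2 fold change, with a median of -0.89, and 1 was called lower by the likelihood ratio test. That gene was Ccnb2, a mitotic cyclin, with 2.51, 6.19 and 18.6 in NI and 1.49 and 0.586 after HS (likelihood ratio test FDR = 0.0497), a call kept only without NI replicate 1. Of 10 endothelial genes 0 were called, with a median of 0.41.

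Genes of the sheaths around the cord and of nerve roots moved in both directions. Of 10 Schwann cell genes, 1 was called higher and 1 lower by the likelihood ratio test, with a median log2 fold change of -0.14. Ngfr, the low affinity neurotrophin receptor p75, had 15.6, 3.89 and 8.06 normalized counts in NI and 35.2 and 35.4 after HS (log2 fold change 2.01, likelihood ratio test FDR = 0.0176). The groups did not overlap for Ngfr, which was called in 1 of the 5 fits without 1 library. Of 12 genes of pericytes and fibroblasts, 2 were called lower, with a median of 0.44. They were Mfap5, a protein of elastic microfibrils, with 25.9, 26.2 and 12.3 in NI and 5.41 and 5.27 after HS (likelihood ratio test FDR = 0.0398), and Mfap4, with 3.77, 9.64 and 0.864 in NI and 0.498 and 0.293 after HS (likelihood ratio test FDR = 0.0351). Both calls were kept only without NI replicate 1 and without NI replicate 3. The summed level of this list was 7099, 695.7 and 491.1 in NI and 1440 and 4647 after HS, so the rest of the list did not follow these 2 genes.

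**Figure D4:**
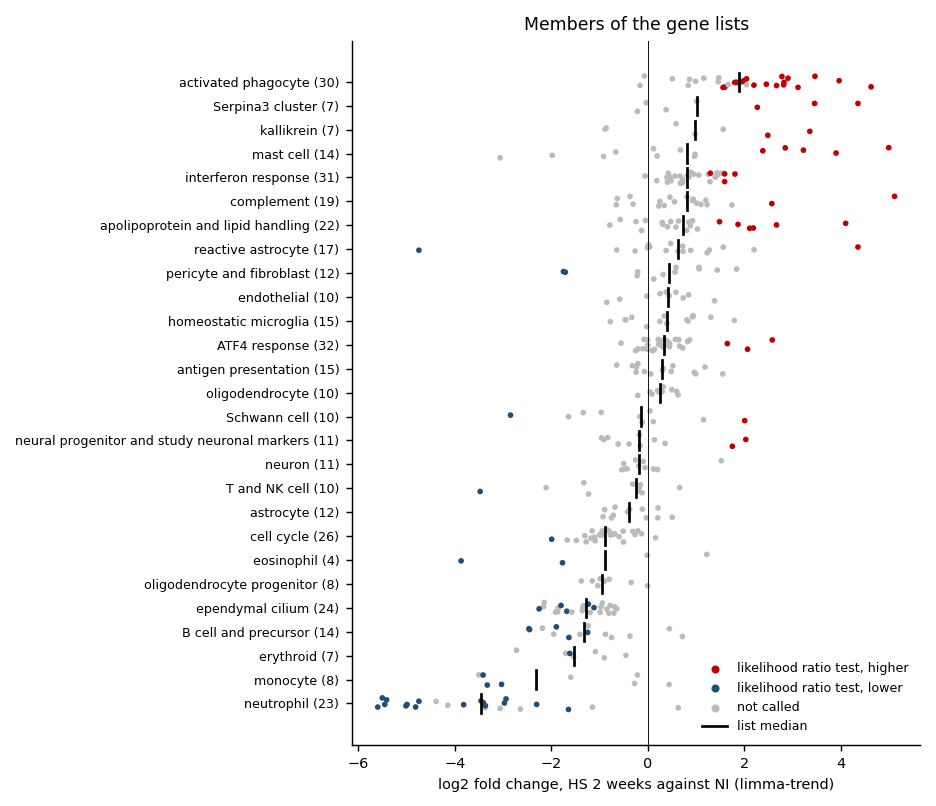
Each point is a measured member of a list, placed by its log2 fold change, HS 2 weeks against NI, with the number of members in brackets and a black bar at the list median. Red and blue points are called higher and lower by the likelihood ratio test, and the medians run from -3.46 for neutrophil genes to 1.90 for activated phagocyte genes.

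HS at 2 weeks was set against HS at 1 week to see what changed with time after the same lesion, and against FT at 2 weeks to see what differed with the severity of the lesion at the same time. Against HS 1 week, limma-trend, the quasi-likelihood test, DESeq2 and the likelihood ratio test each called 0 genes (0% for the likelihood ratio test), with 266 genes at an unadjusted p under 0.05 in limma-trend, 134 higher and 132 lower. The smallest FDR of the likelihood ratio test was 0.0608, that of Apoc1, which had 24.97, 14.6 and 21.6 normalized counts in the 3 HS 1 week libraries and 120.7 and 50.99 at 2 weeks. All HS 2 weeks libraries were above all HS 1 week libraries for this gene (log2 fold change 1.93, standard error 0.41). Against FT 2 weeks, the same 4 tests called 0 genes (0% for the likelihood ratio test), with 370 genes at an unadjusted p under 0.05, 142 higher and 228 lower. The smallest FDR of the likelihood ratio test was 0.5. The limma-trend counts at an unadjusted p under 0.05 were thus 266 and 370 of the 16388 genes tested. Both lay below the share of about 0.05 that this threshold passes when no gene differs. With 2 HS libraries at 2 weeks, a count of 0 does not show that the lesions or times acted alike.

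The genes described above had the following levels in the other injured libraries, which are compared with the same 3 NI libraries. C4b had 1323, 595.4 and 644.6 normalized counts at 1 week after HS, 1629 in the single FT 1 week library and 1489, 717.0 and 775.3 at 2 weeks after FT. The difference of C4b between HS 2 weeks and FT 2 weeks on the log2 scale was 0.51 with a standard error of 0.45 (limma-trend adjusted p = 0.961). Aldh1l2 had 142.8, 90.7 and 59.6 at 1 week after HS, 139.5 at 1 week and 122.2, 79.8 and 76.8 at 2 weeks after FT. For C4b and Aldh1l2 no injured library overlapped the NI range. Serpina3n had 1457, 1938 and 407.8 at 1 week after HS, 1666 at 1 week and 1069, 919.1 and 1130 at 2 weeks after FT. Tubb3 had 177.0, 205.2 and 82.2 at 1 week after HS, 259.7 at 1 week and 186.4, 179.1 and 163.9 at 2 weeks after FT. Both genes were above all NI libraries in every injured library, and HS 1 week replicate 3 was the lowest injured library in both.

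Spp1 and Mcpt2 varied widely within the injured groups. Spp1 had 550.3, 65.9 and 715.2 normalized counts at 1 week after HS, 331.6 at 1 week and 473.4, 171.6 and 476.5 at 2 weeks after FT, so HS 2 weeks replicate 1, with 2474, was the highest of all 12 libraries. HS 1 week replicate 2 lay within the NI range. Mcpt2 had 24.2, 7.46 and 40.7 at 1 week after HS, 46.2 at 1 week and 31.8, 158.2 and 51.6 at 2 weeks after FT, all above the NI libraries. P2ry12, the microglial receptor, had 193.8, 46.1 and 619.9 at 1 week after HS, 189.1 at 1 week and 77.1, 83.4 and 94 at 2 weeks after FT. The libraries with the highest P2ry12 among the HS libraries, HS 1 week replicate 3 and HS 2 weeks replicate 1, were also those with the highest Spp1. Across groups this order did not hold. NI replicate 3 had the highest P2ry12 of all 12 libraries and Spp1 at 72.4, and FT 2 weeks replicate 1 had P2ry12 at 77.1 and Spp1 at 473.4. Whether microglial content bears on Spp1 was not tested.

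S100a8 and Prg2 differed from each other in HS 1 week replicate 3. S100a8 had 26.1, 59.4 and 579.0 normalized counts at 1 week after HS, 9.54 at 1 week and 9.71, 23.1 and 38.03 at 2 weeks after FT, and HS 1 week replicate 3 lay within the NI range. Prg2 had 1.94, 2.52 and 5.63 at 1 week after HS, 1.48 at 1 week and 1.17, 2.91 and 4.37 at 2 weeks after FT, all below the NI range. Fam183b had 5.94, 14.5 and 25.6 at 1 week after HS, 3.63 at 1 week and 4.67, 4.89 and 3.93 at 2 weeks after FT. For Fam183b 2 of the 3 HS 1 week libraries lay within the NI range of 6.92 to 55.02, and both HS 2 weeks libraries and all FT libraries lay below it. The median log2 difference between HS 2 weeks and HS 1 week was -1.12 over the neutrophil genes and -0.89 over the cilium genes, beside 0.01 over all genes, and between HS 2 weeks and FT 2 weeks it was 0.00 and 0.29, beside 0.02 over all genes. For the phagocyte genes these medians were 1.04 and 1.02, and for the homeostatic microglia genes 0.27 and 1.46. None of these members was called in either comparison.

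**Figure D5:**
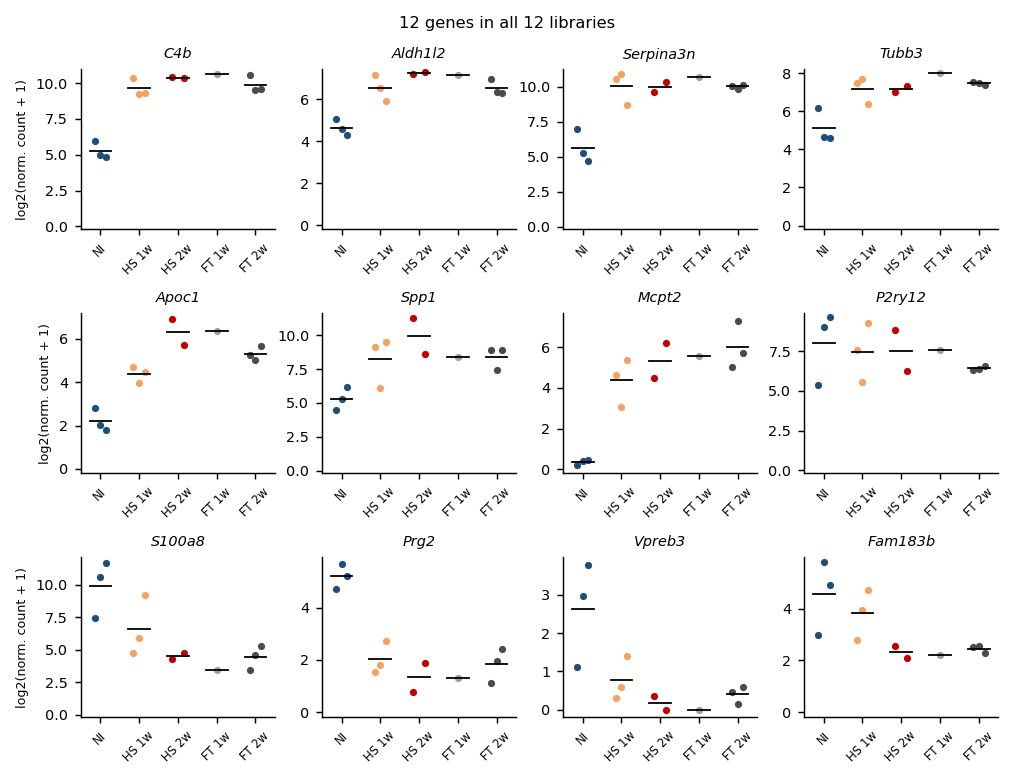
Points give log2(normalized count + 1) of 12 genes in each of the 12 libraries, by group, and bars give the group mean (the FT 1 week group is 1 library). C4b, Aldh1l2, Serpina3n, Tubb3 and Mcpt2 lay above NI in every injured library, while P2ry12 ranged from 39.7 to 819.4 normalized counts within NI alone.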

How the data were processed

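eGFP+ cells were sorted from the thoracic cord and polyA RNA was sequenced after SMARTer amplification and Nextera library preparation, which does not mark the strand. Per the labels and the study's methods, the authors used TopHat2 2.0.9 for mapping to mm10 (GRCm38), HTSeq 0.5.4p3 for counting, and edgeR 3.3.6 for scaling by library size after very low genes were dropped. The deposited signal values are normalized gene counts of 16389 genes, and 0 columns were left unused. Dividing each column by the value of 1 read gave whole reads for 100% of values (within 1e-06), and those reads entered the count tests.

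Log2(normalized count + 1) was modelled in R 4.3.3 by limma-trend (limma 3.58.1), with 12 libraries and 1 term for each of 5 groups (residual degrees of freedom 7, prior 3.687), over 16388 genes whose mean reached 0.5 in any group. Adjusted p-values and FDRs are those of Benjamini and Hochberg over all genes tested. The unit of the deposited files was not the raw count, so tests of recovered reads in edgeR 4.0.16 and DESeq2 1.42.0 were alternatives. The tests were tested on simulated data. Other alternatives were pseudocounts of 0.25 and 4, filters, rescaling, quality weights per library, the replicate number as a block, fewer groups in the model and each replicate left out. Counts and medians of each gene list without each replicate were added after seeing the data. A fit that leaves 1 injured library assumes that it varies like the other groups.

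The comparison, its members and the gene lists were chosen with earlier results of these data known, so no list is independent evidence of its direction. The genes named are those called by limma-trend, the 12 largest rises and 12 largest falls among calls of the likelihood ratio test with a higher group mean of at least 2.5 whose groups do not overlap, up to 6 members of each list by smallest p, abundant cell type markers and genes the study names. Apoe, Gpnmb, Itgax, Clec7a, Axl, Ccl5, Igf1, Cd22, Cxcr2, P2ry12, Tmem119, Myzap, Cacng5, Adamtsl3, Gm1647, S100a11, Zfp619, Cdh4, Dcstamp, Usp18, Kit, Cpa3, Foxj1 and 2310002F09Rik were named after their values were seen. Some genes that the rule names are not reported here. Positions are those of the GENCODE vM21 annotation of GRCm38. Promoter windows are from RefSeq (GRCm38.p6), in which 12844 of the 16388 symbols (78.4%) matched.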

Additional observations from a re-analysis of the deposited data

How the results depend on the processing

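The number of genes called at 2 weeks after HS against NI was 2 by limma-trend as described. It stayed at 2 or 3 under a pseudocount of 4, both filters, both rescalings, the adjusted p alone, the model without the FT 1 week library and the quasi-likelihood test of edgeR. It was 4 with a pseudocount of 0.25 (C4a and Mcpt2 added, each with a limma-trend adjusted p of 0.0407), 0 when the model held no other group, 76 with array quality weights, 124 by the likelihood ratio test of edgeR and 113 by DESeq2. The range over the fits without 1 replicate was 0 to 36 for limma-trend, with 36 without NI replicate 1 and 0 without HS 2 weeks replicate 1, and 31 to 401 for the likelihood ratio test, with 401 without NI replicate 1 and 31 without HS 2 weeks replicate 1. For the calls of 0 against HS 1 week and against FT 2 weeks, every alternative run also gave 0. A model with a replicate block called 6 genes, adding Aldh1l2 and Cst7 as higher and Prg2 and S100a11 as lower. The replicate numbers did not pair the libraries, since the deviations of same-numbered NI and HS 2 weeks libraries from their group means correlated at -0.5128 and -0.1456 over genes, so this fit is given once. The alternatives were followed for 109 of the genes named, and Aldh1l1 was not among them. Of the 109, the log2 fold changes of 92 kept their direction under every alternative run, and those of 17 changed it under at least 1. Without 1 replicate these ran from -0.675 to 2.297 for C1qa, -0.334 to 2.218 for C1qb, -0.427 to 2.276 for C1qc, -0.313 to 3.899 for Cdh4, -0.066 to 3.975 for Dcstamp, -2.238 to 0.38 for Gja1, -0.053 to 0.018 for Il5ra and -0.064 to 1.101 for Ly6c1. They ran from -0.166 to 0.361 for Mog, -0.784 to 0.596 for Nefl, -1.8 to 0.833 for P2ry12, -0.648 to 3.095 for Siglec5, -2.238 to 0.808 for Slc1a2, -1.117 to 0.259 for Snap25, -0.237 to 0.122 for Syt1, -2.394 to 0.838 for Tmem119 and -0.063 to 7.218 for Zfp619. The value of Mog, 0.044 as described, was -0.125 when every library was rescaled to the same total, -0.092 with the replicate block, -0.016 in both tests of edgeR and -0.009 in DESeq2. With array quality weights it was 0.174 for Nefl and 0.074 for Syt1, and with the replicate block 0.135 for P2ry12 and 0.012 for Syt1. Cdh4, Dcstamp and Zfp619 were called higher by the likelihood ratio test, and their direction turned without HS 2 weeks replicate 1. The cause of these differences between settings was not tested. With 12257277 to 14942057 reads per library, depth limited only genes of a few reads, such as the mast cell proteases in NI.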

Other observations

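Beyond the lists, some genes of other functions were called higher by the likelihood ratio test in all 5 fits without 1 library. Stk32b, a serine/threonine kinase gene, had 1.02, 0.702 and 0.432 normalized counts in NI replicates 1 to 3 and 9.25 and 19.6 in HS 2 weeks replicates 1 and 2 (log2 fold change 3.10, standard error 0.46, likelihood ratio test FDR = 2.53e-08, limma-trend adjusted p = 0.0936). Myzap, which encodes a protein of cell junctions, had 7.701, 3.64 and 2.23 in NI and 34.1 and 43.3 after HS (log2 fold change 2.96, standard error 0.45, likelihood ratio test FDR = 1.29e-06). Both genes were above the NI range in every injured library of the series, and Myzap had 32.7, 34.2 and 13.3 at 1 week after HS, 34.1 at 1 week after FT and 43.2, 43.2 and 45.7 at 2 weeks after FT. Cacng5, an auxiliary subunit of AMPA receptors, had 2.83, 2.81 and 2.52 in NI and 18.7 and 35.8 after HS (log2 fold change 2.86, likelihood ratio test FDR = 2.35e-06). Its NI libraries were almost equal, and neither HS library overlapped them. Adamtsl3, a protein of the extracellular matrix, had 2.28, 5.17 and 5.69 in NI and 22.98 and 28.6 after HS (log2 fold change 2.38, likelihood ratio test FDR = 0.000162). Gm1647, a predicted gene, had 0.157, 0.447 and 0.144 in NI and 2.13 and 5.49 after HS (likelihood ratio test FDR = 9.52e-05). Among the genes called lower, S100a11, a calcium binding protein, had 40.9, 91.5 and 117.9 in NI and 8.18 and 19.1 after HS, with all HS libraries below the NI range (log2 fold change -2.51, likelihood ratio test FDR = 0.00207), a call kept in 4 of the 5 fits without 1 library.

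Some genes were high in single libraries. Zfp619, a zinc finger gene, had 1020 normalized counts in HS 2 weeks replicate 1 and 31.4, 1748 and 6.18 at 1 week after HS, against 9.66, 4.85 and 4.17 in NI and 5.57 in HS 2 weeks replicate 2. Cdh4, a cadherin gene, had 59.6 and 2.27 at 2 weeks and 4.12, 23.9 and 3.73 at 1 week after HS, against 3.77, 3.25 and 2.303 in NI. The highest HS 1 week library was replicate 2 for both genes. Dcstamp, a fusion gene of osteoclasts and macrophages, had 22.7 and 0.44 at 2 weeks after HS against 0.864, 0.511 and 0.216 in NI.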
